A study of Homo sapiens with 12 samples.

Results

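The glycolytic enzymes described here are 10 genes of the pathway from glucose to lactate: HK2, GPI, PFKL, ALDOA, TPI1, GAPDH, PGK1, PGAM1, PKM and LDHA. Every probe annotated to 1 of these symbols was taken, which gave 21 of the 15025 probes in the deposited table. GPI and PFKL had 1 probe each, HK2, ALDOA, TPI1, PGK1 and PGAM1 had 2 each, and GAPDH, PKM and LDHA had 3 each. All 10 genes were in the table, which holds 9583 named genes, and every member probe was tested.

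RNA was measured on 12 Illumina bead arrays from HEK293T, a line of human embryonic kidney origin with the SV40 large T antigen. Every culture was given a biotin-tagged synthetic microRNA duplex (200 pmol) and harvested 24 hours later, so the input samples also come from transfected cells. The 4 groups of 3 arrays are the streptavidin pull-down and the input with miR-3118-3p, and the pull-down and the input with miR-4307-3p. Cells without a duplex, or with a duplex of another sequence, were not analysed here, so RNA that sticks to the beads cannot be told apart from RNA held by a microRNA. Separate cultures are not stated for the replicates, and the p-values therefore cover the spread among these samples only, which may be technical.

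Glycolysis splits glucose into pyruvate in the cytosol and makes ATP without oxygen. Its mRNAs are abundant in growing cell lines, which often send pyruvate on to lactate. A microRNA guides Argonaute proteins to mRNAs mainly through its seed, bases 2 to 8 counted from the 5′ end, which pairs with complementary bases in the target. In a pull-down of a tagged microRNA, target mRNAs are sought among those higher in the pull-down than in the input.

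The mature sequences of the bait microRNAs are given because they define what was pulled down. They are from RefSeq (GRCh38.p14), 5′ to 3′, with the seed in capitals.
miR-3118-3p: uGUGACUGcauuaugaaaauucu
miR-4307-3p: aAUGUUUUuuccuguuucc
RefSeq lists them as hsa-miR-3118 and hsa-miR-4307, without an arm in the name. The first was the same in 4 genes. MIR3118-1 has it at chr21:13644784-13644806 on the minus strand, and MIR3118-2, MIR3118-3 and MIR3118-4 have it on the plus strand at chr15:20832838-20832860, chr15:21406428-21406450 and chr15:21843793-21843815. The second is in MIR4307 at chr14:26908697-26908715 on the plus strand. Each lies in the 3′ part of its hairpin, from base 44 or 45 of 75 or 76 for miR-3118 and from base 56 of 84 for miR-4307. The seeds GUGACUG and AUGUUUU differ, and their perfect partners in an mRNA are CAGUCAC and AAAACAU. Transcript sequences were not used here, so sites in the glycolytic mRNAs were not sought.

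The values are on a log2 scale, normalized between arrays by the authors, with medians from 7.53 to 7.59 per array. A difference is therefore relative to other RNA, and absolute recovery is unknown. Each array measures the RNA of many cells, so fewer cells with an mRNA and less of it per cell cannot be told apart. Pull-down replicate 1 of miR-3118-3p stood apart, with correlations of 0.963 and 0.968 with the other arrays of its group, while those within the other groups were at least 0.9875. Replicates 2 and 3 of the same pull-down correlated at 0.983, also less than any pair within the other groups. The median SD over all probes was 0.226 in that pull-down and between 0.129 and 0.137 in the other groups. Of 8 marker genes of HEK293 cells, 6 were in the table. In the inputs vimentin (VIM) lay between 11.97 and 12.42, NEFM and INA between 7.14 and 8.37, and NEFL, KRT8 and KRT18 between 6.34 and 6.93. Of markers of other cell types, 0 of 5 for blood and 0 of 3 for endothelium were in the table, 1 of 5 for fibroblasts (COL1A1, at most 6.13 in the inputs) and 1 of 4 for hepatocytes (ALB, at most 6.76). ALB thus lay in the range of the dimmest 3 HEK293 markers.

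Glycolytic mRNAs were, in the main, either lower in the pull-downs or not distinguishable from input. With miR-3118-3p, 5 member probes from ALDOA, TPI1 and PGAM1 were lower and 1 probe of PKM was higher. With miR-4307-3p, 4 probes from GPI, ALDOA and PGAM1 were lower and 0 were higher. At an unadjusted p under 0.05, 7 were lower with miR-4307-3p and 0 higher, where 2529 of all 15025 probes were lower and 1947 higher. Unless an unadjusted p is named, calls here and throughout are at an adjusted p under 0.05 (limma, Benjamini-Hochberg over all 15025 probes). The members' share of lower calls was 23.8% of 21 probes with miR-3118-3p, where 12.8% of all probes were lower, and the share of higher calls was 4.76%, where 11.8% of all probes were higher. With miR-4307-3p the share of lower calls was 19% against 8.3% of all probes, and higher calls made up 7.86% of all probes. All 3 pull-down arrays lay below all 3 inputs for 5 member probes and above for 2 with miR-3118-3p, against 20.2% and 15.7% of all probes, and for 9 below and 0 above with miR-4307-3p, against 23% and 17.7%. The median difference over the 21 probes was -0.13 with miR-3118-3p and -0.19 with miR-4307-3p, against -0.03 and -0.04 over all probes.

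**Figure D1:**
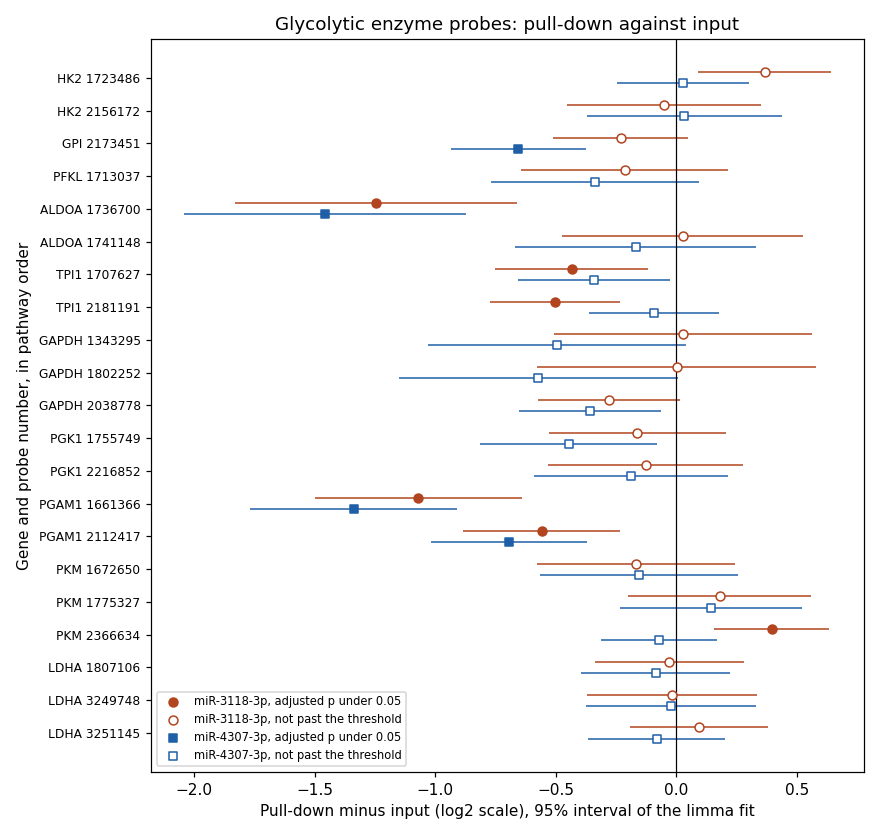
Pull-down minus input on the log2 scale (x axis) for each of the 21 probes (y axis, gene and probe number in pathway order); points are limma estimates from 3 arrays a group, bars their 95% intervals, circles miR-3118-3p and squares miR-4307-3p, filled where the adjusted p was under 0.05. The probes ILMN_1736700 of ALDOA and ILMN_1661366 of PGAM1 lie farthest to the left with both microRNAs, while the LDHA probes lie close to 0.

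Hexokinase 2 (HK2) phosphorylates glucose at the entry of the pathway. Its probe ILMN_1723486 stood at 7.63, 7.83 and 7.83 in the pull-down with miR-3118-3p and at 7.29, 7.32 and 7.58 in the input. All 3 pull-down values were higher than all 3 input values, at a difference of 0.37 ± 0.13 (SE, n = 3 per group) with adjusted p = 0.0506, which missed the threshold. The probe was called higher with the replicate number as a block over all arrays (adjusted p = 0.0488), with that block within each microRNA (0.0358) and with array weights (0.0341). It was also called without pull-down replicate 1 (0.0226) or input replicate 3 (0.0396) of miR-3118-3p and without pull-down replicate 2 of miR-4307-3p (0.0447). In the remaining 16 of 22 other settings it was not called, at adjusted p up to 0.156. The other HK2 probe, ILMN_2156172, differed by -0.05 ± 0.19 with that microRNA. With miR-4307-3p both probes differed by 0.03.

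Glucose-6-phosphate isomerase (GPI) makes fructose 6-phosphate. Its probe ILMN_2173451 stood at 8.81, 8.36 and 8.54 in the pull-down with miR-4307-3p and at 9.21, 9.27 and 9.19 in the input. All pull-down values were lower, by 0.39, 0.92 and 0.66 within replicate numbers 1, 2 and 3. The fitted difference was -0.65 ± 0.13 (adjusted p = 0.00336), and the call was kept in all 23 other settings tried, at adjusted p up to 0.0228. With miR-3118-3p the pull-down values of 9.02, 8.90 and 9.15 overlapped the input values of 9.33, 9.30 and 9.13, at -0.23 ± 0.13 (adjusted p = 0.218). The difference between the microRNAs, 0.42 ± 0.19, did not pass the test (adjusted p = 0.216), so GPI was not shown to respond to 1 microRNA more than to the other.

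Liver-type phosphofructokinase (PFKL) is an isoform of the enzyme of the committed step. Its single probe gave -0.21 ± 0.20 with miR-3118-3p and -0.34 ± 0.20 with miR-4307-3p. In each pull-down 1 array, replicate 1 at 7.22 and at 6.98, was higher than the other arrays, which lay between 6.32 and 6.79, and the groups overlapped. Its adjusted p was 0.470 and 0.288, and 0.0191 with array weights for miR-4307-3p.

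Aldolase A (ALDOA) splits fructose 1,6-bisphosphate into triose phosphates. Its probe ILMN_1736700, annotated to transcript NM_184041, was the most depleted member with both microRNAs. It stood at 8.17, 8.83 and 9.28 in the pull-down with miR-3118-3p and at 9.995, 9.51 and 10.51 in its input. With miR-4307-3p it stood at 8.23, 8.93 and 8.55 in the pull-down and at 10.18, 10.12 and 9.78 in the input. Pull-down and input did not overlap for either microRNA, although the inputs of miR-3118-3p alone spanned 9.51 to 10.51. The differences were -1.25 ± 0.27 (adjusted p = 0.00534) and -1.46 ± 0.27 (adjusted p = 0.00211). Each call was kept in all 22 other settings, at adjusted p up to 0.0351 and 0.0136. Among all 15025 probes these differences stood at percentiles 0.240 and 0.0200, counted from the lowest.

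The brighter ALDOA probe, ILMN_1741148 (NM_184043), behaved otherwise. Its differences were 0.03 ± 0.23 with miR-3118-3p and -0.17 ± 0.23 with miR-4307-3p, and the groups overlapped. Its miR-3118-3p pull-down stood at 11.66 on replicate 1 and at 10.47 and 10.57 on the others, so its mean rests on the array that stood apart. Without that array the difference was -0.35 (adjusted p = 0.0654), and the mean of both microRNAs moved from -0.07 to -0.26 (adjusted p = 0.0372). The gap between the ALDOA probes changed by -1.28 from input to pull-down over both microRNAs. An exact permutation of pull-down and input labels within each microRNA (two-sided, smallest possible p = 0.005) gave p = 0.01 for that change, and adjusted p = 0.07 over the 14 probe pairs compared. Over the 12 arrays the pair correlated at r = -0.06, as a description.

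Triosephosphate isomerase (TPI1) interconverts the triose phosphates. Its probe ILMN_2181191 stood at 11.62, 11.63 and 11.85 in the pull-down with miR-3118-3p and at 12.04, 12.35 and 12.23 in the input. The other probe, ILMN_1707627, stood at 12.06, 11.44 and 11.87 against 12.18, 12.18 and 12.33. Both sets of pull-down values lay below all input values. The differences were -0.50 ± 0.13 (adjusted p = 0.0102) and -0.43 ± 0.15 (adjusted p = 0.0446). The first call was lost without input replicate 2 of miR-3118-3p (adjusted p = 0.0511) and with the spread of the 6 arrays of that microRNA alone (0.0541). The second was fragile: leaving out any of the 12 arrays except pull-down replicate 1 of miR-3118-3p ended it, with adjusted p from 0.0510 to 0.194, the highest and a difference of -0.26 without pull-down replicate 2. That call also ended with quantile normalization, with cyclic loess and with the 6 miR-3118-3p arrays alone. With miR-4307-3p the differences were -0.09 ± 0.13 and -0.34 ± 0.15, and neither passed the threshold. ILMN_1707627 was called lower with array weights (-0.39, adjusted p = 0.00949) and with the 6 miR-4307-3p arrays alone (0.0427). For ILMN_1707627 the miR-4307-3p values did not overlap, at 11.90, 12.03 and 11.83 against 12.30, 12.37 and 12.11.

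Glyceraldehyde-3-phosphate dehydrogenase (GAPDH) makes the NADH of the pathway and is a widely used reference gene. With miR-4307-3p, all 3 probes lay lower in the pull-down than in the input, without overlap. ILMN_1343295 stood at 11.05, 11.58 and 11.37 against 11.85, 11.94 and 11.69. ILMN_1802252 stood at 10.84, 10.70 and 10.95 against 11.35, 11.39 and 11.47. ILMN_2038778 stood at 11.99, 12.06 and 12.22 against 12.44, 12.55 and 12.35. None passed the threshold, at -0.49 ± 0.25, -0.57 ± 0.27 and -0.36 ± 0.14 with adjusted p = 0.203, 0.173 and 0.0932. The standard errors were shared with the miR-3118-3p pull-down, where replicate 1 read 12.58, 12.14 and 12.45 and the other arrays 11.21 and 11.60, 10.60 and 10.92, and 11.90 and 12.20. Without that array all 3 probes were called lower with miR-4307-3p at the same differences (adjusted p = 0.0209, 0.00450 and 0.0368). They were called with the spread of the 6 miR-4307-3p arrays alone too (0.0151, 0.00180 and 0.0332). The last was also called without pull-down replicate 2 of miR-3118-3p (0.0470), and all 3 with array weights. Most settings left them uncalled: 19 for each probe, at adjusted p up to 0.445, 0.354 and 0.265.

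With miR-3118-3p the GAPDH probes differed by 0.03, 0.00 and -0.28 over all arrays, and none was called. Without replicate 1 the same probes differed by -0.37, -0.45 and -0.41, and the latter 2 were called lower (adjusted p = 0.0935, 0.0254 and 0.0248). For ILMN_1343295 and ILMN_1802252 the value in this pull-down therefore hung on 1 array. ILMN_2038778 was below 0 in every setting, from -0.41 to -0.14. GAPDH has many processed pseudogenes, as do PGK1, PGAM1, TPI1 and LDHA among others, so the transcripts that these probes read are uncertain.

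Phosphoglycerate kinase 1 (PGK1) makes the first ATP of the pathway. Its brighter probe, ILMN_1755749, stood at 9.92, 10.12 and 9.59 in the pull-down with miR-4307-3p and at 10.29, 10.54 and 10.13 in the input, without overlap. The difference was -0.45 ± 0.17 (adjusted p = 0.0924), and -0.45 with adjusted p = 0.0137 when the replicate number was a block within each microRNA, which pairs each pull-down with its input. The call was also gained without pull-down replicate 1 of miR-3118-3p (adjusted p = 0.0489). The dimmer probe gave -0.19 ± 0.19, and the probes gave -0.16 and -0.13 with miR-3118-3p.

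Phosphoglycerate mutase 1 (PGAM1) moves the phosphate from carbon 3 to carbon 2 of glycerate, and was lower by both probes with both microRNAs. ILMN_1661366 stood at 8.02, 7.83 and 8.57 in the pull-down with miR-3118-3p and at 9.33, 8.99 and 9.32 in the input. With miR-4307-3p it stood at 7.51, 8.20 and 7.83 against 9.03, 9.41 and 9.11. The brighter ILMN_2112417 stood at 10.36, 9.89 and 10.10 against 10.66, 10.52 and 10.85, and at 9.75, 10.15 and 9.85 against 10.61, 10.76 and 10.47. In each of these 4 comparisons every pull-down array lay below every input array, with no exception.

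For ILMN_1661366 the differences were -1.07 ± 0.20 (adjusted p = 0.00223) and -1.34 ± 0.20 (adjusted p = 0.000367), called in all 22 other settings. For ILMN_2112417 they were -0.56 ± 0.15 (adjusted p = 0.0157) and -0.69 ± 0.15 (adjusted p = 0.00604). The miR-3118-3p call of that PGAM1 probe was lost without pull-down replicate 2 (adjusted p = 0.0682), without input replicate 3 (0.0719), with cyclic loess (0.0544) and with the 6 arrays alone (0.0565). The dimmer probe differed more than the brighter by 0.58 on average over the microRNAs (exact permutation p = 0.015, adjusted p = 0.07 over 14 pairs), and the pair correlated at r = 0.93 over the 12 arrays.

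PGAM1 has a near-identical retrocopy, PGAM4, and 4 further probes are annotated to that symbol. Their differences were -0.82, -0.10, -0.22 and -0.08 with miR-3118-3p, and -0.90, -0.38, -0.49 and -0.12 with miR-4307-3p. Of these PGAM4 probes, ILMN_1682953 was called lower with both (adjusted p = 0.0127 and 0.00968) and ILMN_1706841 with miR-4307-3p (0.0130). The first call was lost without input replicate 1 (0.0667) or 3 (0.0512) of miR-3118-3p, the next without input replicate 2 of miR-4307-3p (0.0564), and the last without pull-down replicate 3 (0.0708) or input replicate 3 (0.0633) of miR-4307-3p. Array weights and the 6 miR-3118-3p arrays alone also ended the first call. Which of the PGAM1 and PGAM4 transcripts each probe reads is uncertain.

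**Figure D2:**
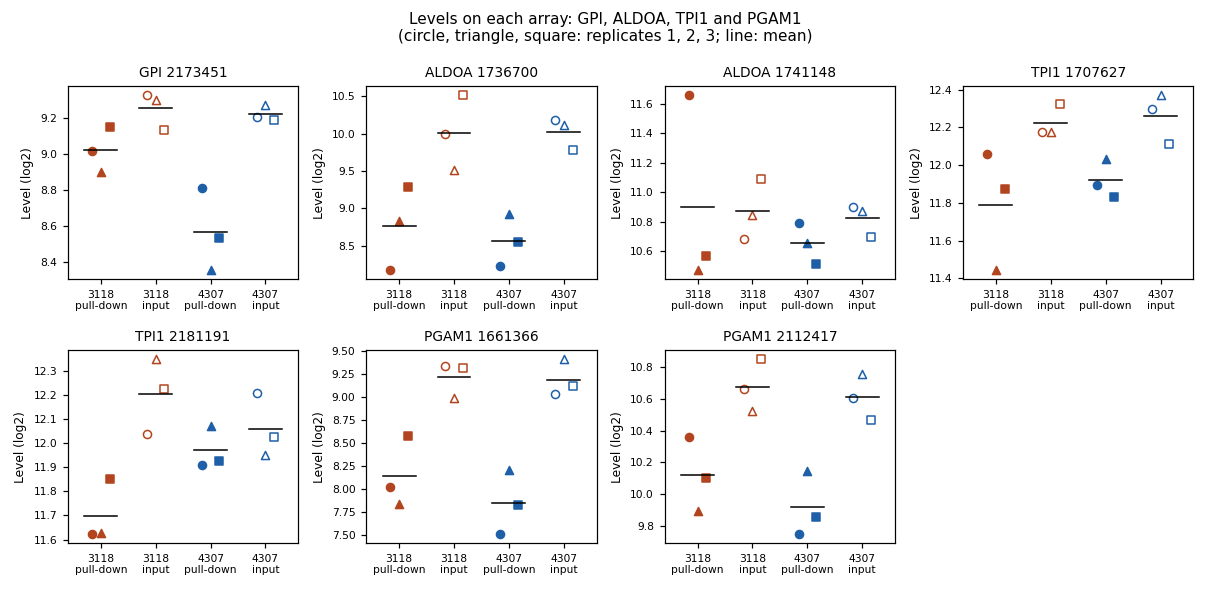
Level on each array (y axis, log2) of the probes of GPI, ALDOA, TPI1 and PGAM1, in the 4 groups (x axis; filled symbols are pull-downs, open symbols inputs; red is miR-3118-3p and blue miR-4307-3p). Circles, triangles and squares are replicates 1, 2 and 3 and lines are means; the PGAM1 pull-downs lie below the inputs in both panels, while ALDOA ILMN_1741148 has 1 high pull-down array at 11.66.

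Pyruvate kinase (PKM) makes the last ATP of the pathway and pyruvate, and its transcripts are spliced in alternative ways. It held the 1 member probe called higher. ILMN_2366634, annotated to NM_182471, stood at 9.73, 9.60 and 9.84 in the pull-down with miR-3118-3p and at 9.27, 9.41 and 9.30 in the input. The groups did not overlap, at 0.40 ± 0.11 (adjusted p = 0.0197). The call was lost without input replicate 1 (adjusted p = 0.0650), input replicate 3 (0.0621) or pull-down replicate 3 (0.0595) of miR-3118-3p, and with its 6 arrays alone (0.0854). With miR-4307-3p that probe differed by -0.07 ± 0.11, and the difference between the microRNAs, 0.47 ± 0.16, did not pass (adjusted p = 0.0962).

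The other PKM probes gave overlapping groups. ILMN_1775327 (NM_182470) differed by 0.18 ± 0.18 and 0.14 ± 0.18, and ILMN_1672650 (NM_002654) by -0.17 ± 0.19 and -0.16 ± 0.19, with miR-3118-3p and miR-4307-3p in turn. Pull-down minus input was more negative for ILMN_1672650 than for ILMN_1775327 by 0.32 on average (exact permutation p = 0.01, adjusted p = 0.07 over 14 pairs). Whether a PKM probe reads 1 transcript alone was not tested.

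Lactate dehydrogenase A (LDHA) turns pyruvate into lactate. Its bright probes ILMN_1807106 and ILMN_3249748 lay between 11.95 and 12.59 on every array, and the groups overlapped for all 3 probes and both microRNAs. The 6 differences lay between -0.09 and 0.09. For the bright probes the 95% intervals ran from -0.34 to 0.28 and from -0.37 to 0.33 with miR-3118-3p, and from -0.39 to 0.22 and from -0.37 to 0.33 with miR-4307-3p. Falls as large as those of PGAM1 lay outside these intervals, whereas falls as large as 0.3 did not. The dim probe ILMN_3251145, at levels from 5.92 to 6.43, lay near the low end of the table and could show little.

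**Figure D3:**
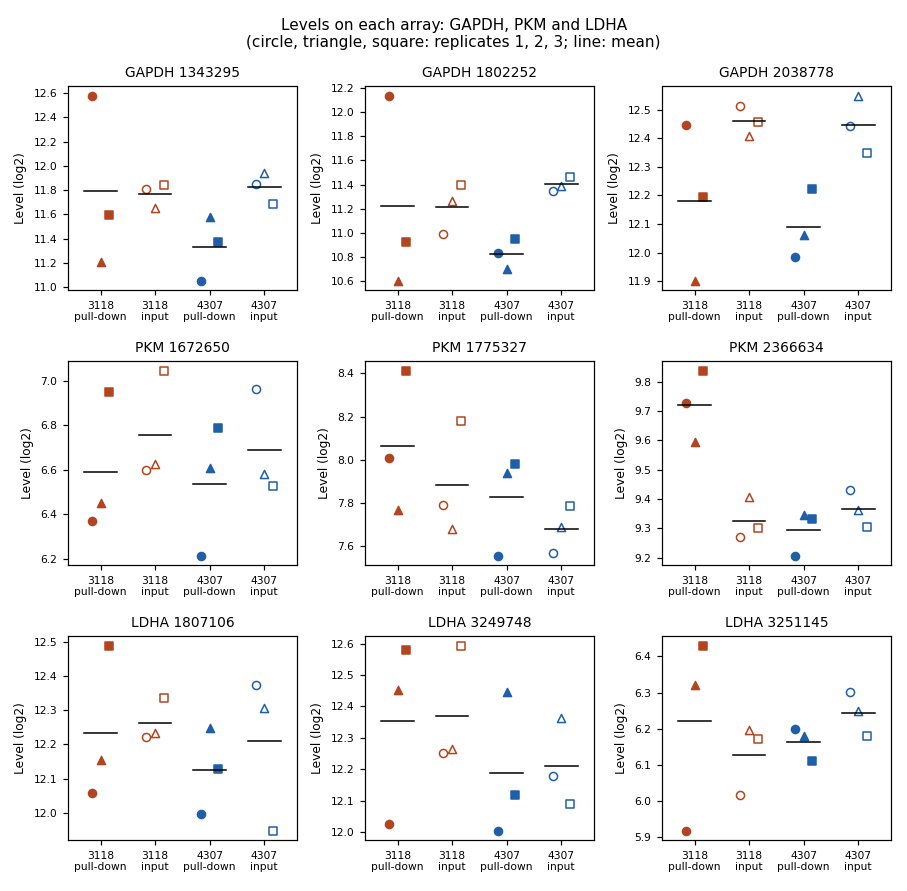
Level on each array (y axis, log2) of the 9 probes of GAPDH, PKM and LDHA in the 4 groups (x axis; filled symbols are pull-downs, open symbols inputs; red is miR-3118-3p and blue miR-4307-3p; circles, triangles and squares are replicates 1, 2 and 3; lines are means). Pull-down replicate 1 of miR-3118-3p lies far above the other arrays of its group for GAPDH ILMN_1343295 and ILMN_1802252, at 12.58 and 12.14.

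Probes of 1 gene were then set beside each other. Of the 8 members with several probes, 3 had all probes in the same direction with miR-3118-3p, namely TPI1, PGK1 and PGAM1, and 5 were mixed. With miR-4307-3p, 7 of 8 had the same direction, 6 of them below 0 and HK2 above, and PKM was mixed. Among the 2330 genes of the table with several probes, all probes had the same direction for 70.4% and 73.1%. None of the 14 pairs of probes differed in its response past the threshold after adjustment, by the exact permutation test described for ALDOA. With 14 pairs and a smallest p of 0.005, a single pair could not have passed (0.07 at best), so this says nothing about agreement.

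Averaged over both microRNAs, which have separate inputs, 7 probes of 5 genes were lower and 0 higher, against 17.9% lower and 15.6% higher of all probes. HK2 ILMN_1723486 was the 1 member probe higher at an unadjusted p under 0.05, where 3087 of all 15025 probes were higher. The lower genes were ALDOA by ILMN_1736700 (-1.35 ± 0.19), PGAM1 (-1.20 ± 0.14 and -0.63 ± 0.11), GPI (-0.44 ± 0.09), TPI1 (-0.39 ± 0.10 and -0.30 ± 0.09) and GAPDH by its brightest probe (-0.32 ± 0.10, adjusted p = 0.0210). The brighter ALDOA probe, at -0.07, and the other GAPDH probes, at -0.23 and -0.28, were not called (adjusted p = 0.775, 0.333 and 0.273). The call of the brightest GAPDH probe was lost without input replicate 2 of miR-4307-3p (adjusted p = 0.0569) and with cyclic loess (0.0728). That of TPI1 ILMN_2181191 was lost without input replicate 1 of miR-4307-3p (0.0523), without input replicate 2 of miR-3118-3p (0.0526) and with cyclic loess (0.0879). PGK1 was called lower with the replicate number as a block within each microRNA (-0.30, adjusted p = 0.00922), and without pull-down replicate 2 of miR-4307-3p (0.0437) or pull-down replicate 3 of miR-3118-3p (0.0215), and PFKL without replicate 1 of the miR-3118-3p (0.0180) or miR-4307-3p (0.0470) pull-down. Without pull-down replicate 1 of miR-3118-3p, 11 member probes were lower. Over all probes 2685 were lower for this mean with every array, and 2102 to 3214 with 1 array left out.

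The difference between the enrichments was called for 0 of 21 member probes, where 2.77% of all probes were higher and 4.82% lower with miR-3118-3p. At an unadjusted p under 0.05, GPI and PKM ILMN_2366634 were higher and TPI1 ILMN_2181191 was lower with miR-3118-3p. Of all 15025 probes, 1462 were higher and 1470 lower at that threshold, so these are not results about the members. The inputs of the microRNAs did not differ for any of the 21 probes by limma, with 0 at an unadjusted p under 0.05, and over all probes 0 were called and 94 were higher and 158 lower at that unadjusted threshold. Their values overlapped for all 21, where 3.94% of all probes lay higher and 5.06% lower without overlap with miR-3118-3p. The largest input differences were 0.20 for PKM ILMN_1775327 and -0.18 for GAPDH ILMN_1802252.

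Most member probes were bright, and bright probes as a whole were more often lower. Of the 21, 14 lay in the 25% of probes with the highest mean over the 6 inputs, and 9 in the highest 10%. In that highest 25%, at levels of 8.99 or more, 22.5% of all probes were lower and 12% higher with miR-3118-3p, and 16.2% lower and 8.68% higher with miR-4307-3p. In the lowest 25%, 3.81% and 1.73% were lower. All member calls fell in the highest 25%: 5 of 14 lower and 1 higher with miR-3118-3p, 4 of 14 lower with miR-4307-3p. The median difference of all probes in that range was -0.12 with each microRNA, and that of the 14 members was -0.20 and -0.40. The part of input level in the members' differences was not tested.

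**Figure D4:**
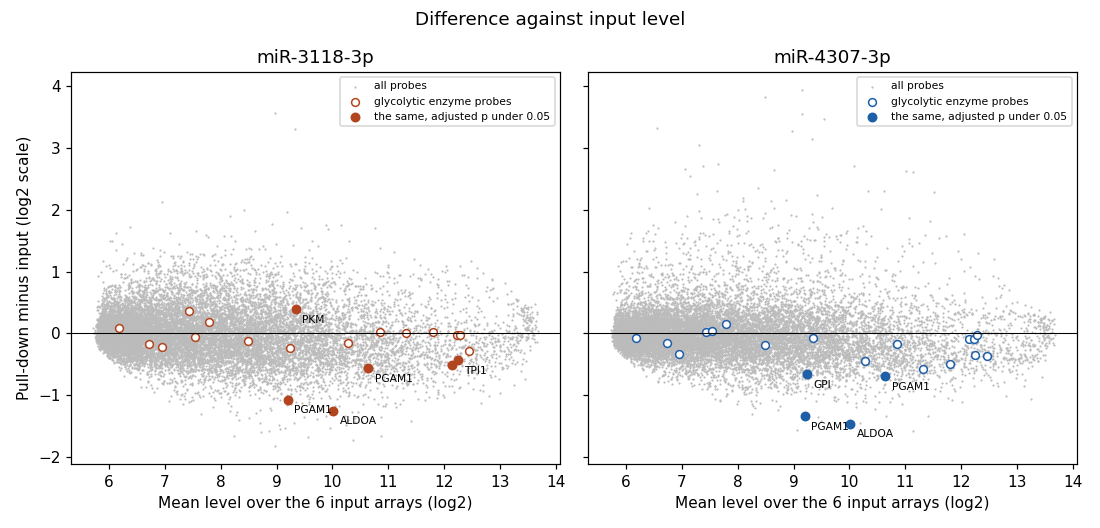
Pull-down minus input (y axis, log2 scale) against the mean level over the 6 input arrays (x axis, log2) for all 15025 probes in grey and the 21 glycolytic enzyme probes in colour, filled where the adjusted p was under 0.05; left miR-3118-3p, right miR-4307-3p. The filled points lie at input levels above 8.99, and ALDOA ILMN_1736700 and PGAM1 ILMN_1661366 lie at the lower edge of the grey cloud.

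Over the 12 arrays, the genes most like a called member by Pearson correlation of brightest probes were read as a description, since all points share their arrays. GPI was most like MYC (r = 0.939) and WASHC3 (0.938), and TPI1 was most like LRWD1 (0.967) and MRPL17 (0.963). PGAM1 was most like ID3 (0.962) and TMX2 (0.953). PKM was most like ATP5PB (0.952) and SNX2 (0.949), and the brighter ALDOA probe was most like ELOVL1 (0.979) and PRXL2B (0.938).

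The rest of the pathway and its neighbours were read at the brightest probe of each gene. Of 63 measured genes in 8 lists, 6 were lower and 6 higher with miR-3118-3p, and 6 lower and 2 higher with miR-4307-3p. Over all 9583 named genes at their brightest probe, 1061 were lower and 1224 higher with miR-3118-3p, and 618 and 796 with miR-4307-3p. The counts of each list below have this background, were not tested against it, and are not read as results about a pathway. Of 12 other glycolytic isozymes and steps, 0 were lower and 1 higher with miR-3118-3p, and 1 lower and 1 higher with miR-4307-3p, the lower being PGAM4. ADPGK, an ADP-dependent glucokinase, rose by 0.77 ± 0.15 and 0.48 ± 0.15. The second ADPGK call was lost without any of 7 of the 12 arrays, namely every miR-4307-3p array and input replicate 2 of miR-3118-3p (adjusted p from 0.0558 to 0.141). A trend in the eBayes step also ended it. Enolase 1 (ENO1), the main enolase, stood at -0.12 and -0.05, HK1 at -0.03 and -0.26, and PFKP at -0.33 and -0.16, none past the threshold.

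Among 6 genes of control, MYC, a transcription factor that drives many glycolytic genes, was lower with miR-4307-3p (-0.67 ± 0.12, adjusted p = 0.00151). Its other probe, ILMN_2110908, was at -0.44 with overlapping groups and was not called (adjusted p = 0.134). At -0.28 with miR-3118-3p the brighter MYC probe was called without pull-down replicate 3 of that microRNA alone (adjusted p = 0.0293). HIF1A, the oxygen-regulated activator of glycolysis, was higher with miR-3118-3p (0.57 ± 0.18), although its groups overlapped and its other probes, at 0.27 and 0.46, were not called. The HIF1A difference between the microRNAs, 0.61, was not called, but was called with the replicate number as a block within each microRNA (adjusted p = 0.0376), with array weights (0.79, adjusted p = 0.0101) and, at 0.86 (0.00577), without pull-down replicate 1 of miR-3118-3p. The call with miR-3118-3p was lost without input replicate 1 (adjusted p = 0.125) or 2 (0.0718) or pull-down replicate 2 (0.118) or 3 (0.108) of miR-3118-3p, and with the 6 arrays of that microRNA alone. PFKFB4, which makes the allosteric activator fructose 2,6-bisphosphate, was lower with miR-3118-3p (-0.36, adjusted p = 0.0486), a call lost without each of 11 arrays in turn, all but pull-down replicate 3 of miR-3118-3p (0.0539 to 0.165). In total 18 of 23 other settings ended the PFKFB4 call, among them quantile normalization, cyclic loess and array weights.

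Of 6 genes of glucose and lactate transport, 2 were lower with miR-3118-3p and 0 with miR-4307-3p. These were the glucose transporters SLC2A1 (-0.68 ± 0.15) and SLC2A6 (-0.52 ± 0.12), each called in all 23 other settings. Their differences with miR-4307-3p were -0.14 and -0.27, and the differences between the microRNAs did not pass (adjusted p = 0.152 and 0.460). BSG, the chaperone of lactate carriers, lay below its input without overlap with both, at -0.29 and -0.35, and did not pass.

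Of 10 genes of pyruvate entry and oxidation, 2 were lower with miR-3118-3p and 1 with miR-4307-3p. MPC2, a subunit of the mitochondrial pyruvate carrier, fell by 0.59 with miR-3118-3p (SE 0.12, adjusted p = 0.00370), and at -0.35 with miR-4307-3p it was called with the replicate number as a block within each microRNA (adjusted p = 0.0460) and without pull-down replicate 1 of miR-3118-3p (0.0297). The pyruvate dehydrogenase subunits PDHB (-0.53 with miR-3118-3p) and PDHA1 (-0.45 with miR-4307-3p) were less certain. The PDHB call was lost without any of 10 arrays, all but replicate 3 of each pull-down (adjusted p from 0.0501 to 0.156). Quantile normalization, cyclic loess, array weights and the 6 miR-3118-3p arrays alone also ended it. PDHA1 with miR-3118-3p, at -0.34, was called with the replicate number as a block within each microRNA (adjusted p = 0.0354). The PDHA1 call with miR-4307-3p was lost without pull-down replicates 1 (0.0588) or 3 (0.149) or input replicates 1 (0.0710) or 2 (0.138) of miR-4307-3p, and with cyclic loess.

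Of 13 citric acid cycle genes, 1 was lower and 2 higher with miR-3118-3p, and with miR-4307-3p 2 were lower and 1 higher. SDHD, a membrane anchor of succinate dehydrogenase, was lower with both (-0.84 ± 0.19 and -0.71 ± 0.19), while IDH3A, the catalytic subunit of NAD-dependent isocitrate dehydrogenase, was higher with both (1.03 ± 0.21 and 0.77 ± 0.21). IDH3G, a regulatory subunit of that enzyme, was lower with miR-4307-3p (-0.70 ± 0.18), and SUCLA2, a subunit of succinyl-CoA synthetase, was higher with miR-3118-3p (0.58 ± 0.17). With miR-4307-3p, the SDHD call was lost without pull-down replicate 3 or input replicates 2 or 3 (adjusted p from 0.0536 to 0.0827), that of IDH3A without pull-down or input replicates 2 or 3 (0.0670 to 0.110), and that of IDH3G without input replicates 1 or 3 or pull-down replicate 2 (0.0603 to 0.0608). Without pull-down replicate 1 of miR-3118-3p, IDH3G was called lower with that microRNA (-0.54), and SUCLA2 differed between the microRNAs by 0.83 (adjusted p = 0.0137) in place of 0.64. The other SUCLA2 probe, at 0.26, was not called. The SUCLA2 call was lost without input replicates 1 or 2 or pull-down replicate 2 of miR-3118-3p (0.0537 to 0.112), and with the 6 arrays of that microRNA alone.

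Of 3 measured genes of gluconeogenesis, 0 passed the threshold with either microRNA by limma. These were PC (0.06 and 0.24), PCK2 (-0.06 and -0.40) and G6PC3 (-0.27 and -0.13), with 1 of them past an unadjusted p of 0.05, PCK2 with miR-4307-3p. In the pentose phosphate pathway 1 of 7 was higher with miR-3118-3p and 1 lower with miR-4307-3p, in each case TALDO1. In the branches to glycerol, serine and hexosamine 1 of 6 was higher with miR-3118-3p, PSAT1.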

How the data were processed

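Illumina bead arrays were read from 12 samples in 4 groups of 3, with groups and replicate numbers from the sample titles. The authors deposited log2 values, and lumi 2.2.1 is named per the submitters' processing notes. Their transform (plain or variance-stabilising), normalization method and probe filter were not found in the labels. Another deposited table holds 12 columns of raw signal that no sample label matches, so it was left out and the planned background correction was not run. The number of arrays limits the precision.

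Genes were named from GEO's annotation of the platform with current symbols. It gave 1 symbol for 12354 of 15025 probes, several for 2 and none for 2669. Every probe was fitted with limma 3.58.1 in R 4.3.3 (lmFit and eBayes, 4 group means, all 12 arrays, 8 residual degrees of freedom), in 5 comparisons, each adjusted by Benjamini-Hochberg over all probes, two-sided, threshold 0.05. Intervals are 95%. The fit was tested on simulated data. Members and lists were chosen with earlier results of these data known; the permutation test of probe pairs was added after seeing the data. Named were all member probes, the 4 called genes with the largest difference per other list, members of lists with 5 or fewer calls, and the 2 genes most like each called member. ENO1, HK1, PFKP and BSG were picked after their values were seen. Alternatives were other units (1 probe or the mean per gene), normalizations, variance models, a filter on low levels, replicate blocks and leaving out each array.

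Deviations from the group mean were correlated over all probes between pull-down and input arrays of the same number. The values were 0.204, 0.342 and 0.286 for the miR-4307-3p arrays. Those of the other microRNA were 0.344, 0.0736 and 0.476. Over all probes, each pull-down correlated most with the input of its own number, so a pairing was read from the data. For pull-down replicate 2 of miR-3118-3p the lead was small, at 0.0736 against 0.0411 with input replicate 3. Over the member probes alone the pairing did not show for every array. Pull-down replicates 1 and 2 of miR-3118-3p were at -0.05 and -0.21 with their own inputs, and at 0.41 and 0.28 with another. Pull-down replicate 1 of miR-4307-3p was at -0.04 with its own and 0.10 with input replicate 3. Arrays were paired only in the replicate-block settings and in the GPI differences within replicate numbers. The main fit held no block, so its p-values do not use the pairing. Figures used matplotlib 3.10.9.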

Additional observations from a re-analysis of the deposited data

Results flagged for a closer look

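Of the 73 genes of the pathway lists, members included, 5 had a called difference between the enrichments, and none of these was a member. That is 6.85%, against 7.57% of all 9583 named genes, so the share is near the background. Each is a difference of differences over all 12 arrays (limma).

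PSAT1, an enzyme of serine synthesis from a glycolytic intermediate, was at 1.06 ± 0.15 with miR-3118-3p and -0.32 ± 0.15 with miR-4307-3p, a difference of 1.38 (adjusted p = 0.000568), called in all 22 other settings. TALDO1, transaldolase of the pentose phosphate pathway, was at 0.40 and -0.53, a difference of 0.94 (adjusted p = 0.00602), also called in all 22. The call of TALDO1 against its own input was lost without any of 8 arrays with miR-3118-3p, with adjusted p from 0.0503 to 0.172, and with miR-4307-3p without pull-down replicate 1 or input replicates 1 or 2, with adjusted p from 0.0566 to 0.0583. Array weights and the 6 miR-3118-3p arrays alone also ended the miR-3118-3p call.

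MPC1, of the mitochondrial pyruvate carrier, was at -0.35 and 0.39, a difference of -0.74 (adjusted p = 0.0260), lost without pull-down replicate 1 or input replicate 2 of miR-4307-3p or input replicates 2 or 3 of miR-3118-3p (adjusted p from 0.0646 to 0.0814). For PSAT1, TALDO1 and MPC1 the values of each pull-down and its input did not overlap, in opposite directions. A dimmer MPC1 probe, ILMN_1666967, gave -0.66 (adjusted p = 0.0441) and 0.14, and its difference of -0.80 was not called (adjusted p = 0.164). Against their own inputs the brightest MPC1, SDHC and IDH3B probes were not called, except where replicate 1 or 3 of the miR-3118-3p pull-down was left out (adjusted p from 0.00509 to 0.0454) or in settings such as array weights. With the replicate number as a block within each microRNA, MPC1 (adjusted p = 0.0459) and IDH3B (0.0415) were called with miR-4307-3p, and IDH3B (0.0215) and SDHC (0.0412) with miR-3118-3p. SDHC, a membrane anchor of succinate dehydrogenase, was at 0.48 and -0.49, a difference of 0.97 (adjusted p = 0.0228), lost without any of 6 arrays, namely input replicates 1 or 2 of miR-3118-3p and pull-down replicates 1 or 3 and input replicates 2 or 3 of miR-4307-3p (0.0556 to 0.0635). Its other probe, ILMN_2323366, was at 0.12 and 0.02, a difference of 0.10 that was not called (adjusted p = 0.867). IDH3B, of isocitrate dehydrogenase, was at 0.40 and -0.37, a difference of 0.78 (adjusted p = 0.0473), lost without any of 9 arrays (0.0631 to 0.130). The 3 others are pull-down replicates 1 and 2 and input replicate 3 of miR-3118-3p. Median centring and a trend in the eBayes step also ended the IDH3B call.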

How the results depend on the processing

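Across 24 other settings, 2226 of 2292 results for single member probes kept their side of the threshold, 29 calls were lost and 36 gained. The 2292 results cover all 5 comparisons. They include the difference between the enrichments and input against input, where no member probe was called in any setting. The share kept is therefore no measure of how stable the calls were. The 1 value that turned direction and was called was GAPDH ILMN_1802252 with miR-3118-3p, from 0.00 to -0.45 without replicate 1 of that pull-down (up to 0.31 without another array). Leaving out 1 array at a time, member probes numbered 3 to 7 lower and 0 to 2 higher with miR-3118-3p, 4 to 8 lower with miR-4307-3p, and 6 to 11 lower for the mean of both. All probes then numbered 1245 to 2476 lower and 1181 to 2377 higher with miR-3118-3p, 553 to 1925 lower and 797 to 1551 higher with miR-4307-3p, and 242 to 1036 higher and 554 to 925 lower for the difference. For the mean of both, all probes numbered 2102 to 3214 lower and 1831 to 2867 higher.

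Array weights gave 10 lower member probes with miR-4307-3p in place of 4 and 2 higher with miR-3118-3p in place of 1, and over all probes 2293 higher and 2949 lower with miR-4307-3p, and 899 higher for the difference. The 6 arrays of each microRNA alone gave 2 lower and 0 higher member probes with miR-3118-3p (863 higher and 892 lower over all probes) and 9 lower with miR-4307-3p (1809 and 2233). Cyclic loess gave 3 lower member probes with miR-3118-3p and 1 higher for the mean of both. With the mean of each gene's probes, 0 members were higher with miR-3118-3p. The replicate block over all arrays and the replicate block within each microRNA each gave 2 higher member probes with miR-3118-3p, HK2 joining PKM; the second gave 5 lower with miR-4307-3p, PGK1 joining, and 770 probes higher for the difference. The blocks changed no other call of a member in the pull-down comparisons. Why these counts moved was not tested. Dim probes, such as LDHA ILMN_3251145, could show little.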
